A study of Mus musculus with 15 samples.

Results

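The 19 Wnt ligands, the 10 Frizzled receptors (Fzd1 to Fzd10) and the co-receptors Lrp5 and Lrp6 were taken by gene symbol, 31 of the 22202 protein-coding genes on chromosomes 1 to 19 and X of the mouse annotation, and all 31 were found. Wnt proteins are secreted, lipid-modified signals, which need the palmitoyltransferase Porcn and the carrier Wls to leave the cell and which bind a Frizzled receptor together with Lrp5 or Lrp6. In the canonical branch this stabilises β-catenin, which acts with Tcf and Lef factors in the nucleus, while other Wnt and Frizzled pairs act on cell polarity and calcium. In the eye, Wnt signalling is held low where the lens forms and is active in the lens epithelium and in fibre cell organisation.

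Chromatin was compared at these genes in αTN4, a line of mouse lens epithelium carrying SV40 T antigen, infected with a lentivirus carrying either a control shRNA or an shRNA against Pax6, selected with puromycin and kept as a stable line, and in lens of newborn CD-1 mice at P1. Pax6 is the transcription factor that directs lens formation. Control cells were profiled by ChIP-seq for Pax6, RNA polymerase II (Pol2), H3K4me1, H3K4me2 and H3K4me3, Pax6 knockdown (KD) cells for the 3 histone marks, and the newborn lens for H3K4me2, with 1 list of regions for each. H3K4me3 marks starts of genes, H3K4me1 enhancers and the edges of promoters, and H3K4me2 both. The shRNA lines are transformed cells without an intact lens around them, and the KD cells carried 1 shRNA construct.

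The lists held from 504 Pax6 peaks and 14301 H3K4me3 peaks (KD) to 66274 H3K4me2 peaks (control). With 1 library per condition in the labels, no difference between conditions has a replicate check and no p-value is given. By its peak names the control H3K4me2 list may pool replicates. The number of reads behind the peaks is not known, and strength is given as fold enrichment over background together with its percentile among the regions of the same list. The antibody fields of the Pax6 and Pol2 libraries are exchanged against their titles, and titles were followed: 72.4% of the 17204 peaks titled Pol2 and 10.5% of the 504 titled Pax6 lay within 2 kb of a protein-coding start. Of 11 lens markers, 10 had H3K4me2 at the promoter in the newborn lens and 5 in control cells (Pax6, Prox1, Maf, Cryaa and Cryab), so promoters of Foxe3, Cryba1, Crybb2, Bfsp1, Bfsp2 and Mip carried no H3K4me2 peak in the cell line. The lens also carried it at the retinal markers Rax and Crx, at both endothelial markers (Kdr and Cdh5) and at neither blood marker, whereas the cell line carried it at none of these. Both samples carried it at the mesenchymal markers Twist1 and Prrx1 and, of 3 pigment epithelium markers, at Mitf.

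The bases before the annotated start are shown for members that differ in what their promoters carried. Fzd7 and Wnt9a had H3K4me3 and Pol2 in αTN4 cells, and Wnt10a had the same promoter marks with a CpG-poor start. Fzd9, Fzd10, Lrp5 and Wnt9b had H3K4me2 in the newborn lens only, and Wnt8b had no promoter mark in any list. Each is 150 bases long, 5′ to 3′ on the strand of the gene and ending at the base before the first transcribed one, with every CpG dinucleotide in capitals.
Fzd7 (mm9, chr1:59538841-59538990, plus strand, 11 CpG): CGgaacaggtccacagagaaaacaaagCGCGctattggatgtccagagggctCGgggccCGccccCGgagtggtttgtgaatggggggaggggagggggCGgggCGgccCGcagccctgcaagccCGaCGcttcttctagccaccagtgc
Wnt9a (mm9, chr11:59120280-59120429, plus strand, 30 CpG): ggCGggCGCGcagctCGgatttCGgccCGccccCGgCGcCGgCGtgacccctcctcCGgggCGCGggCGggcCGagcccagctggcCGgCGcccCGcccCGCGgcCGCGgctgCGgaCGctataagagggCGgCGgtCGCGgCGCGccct
Wnt10a (mm9, chr1:74837940-74838089, plus strand, 1 CpG): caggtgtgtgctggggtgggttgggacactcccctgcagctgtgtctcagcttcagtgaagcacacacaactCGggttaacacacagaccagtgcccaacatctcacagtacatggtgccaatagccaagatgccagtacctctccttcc
Fzd9 (mm9, chr5:135727101-135727250, minus strand, 18 CpG): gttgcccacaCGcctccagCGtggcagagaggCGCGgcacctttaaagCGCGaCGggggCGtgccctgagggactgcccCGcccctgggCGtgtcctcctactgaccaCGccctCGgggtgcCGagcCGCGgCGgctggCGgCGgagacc
Fzd10 (mm9, chr5:129106569-129106718, plus strand, 9 CpG): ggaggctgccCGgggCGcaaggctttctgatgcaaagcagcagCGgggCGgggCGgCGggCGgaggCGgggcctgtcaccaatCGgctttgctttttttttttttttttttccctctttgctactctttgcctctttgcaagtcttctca
Lrp5 (mm9, chr19:3686565-3686714, minus strand, 22 CpG): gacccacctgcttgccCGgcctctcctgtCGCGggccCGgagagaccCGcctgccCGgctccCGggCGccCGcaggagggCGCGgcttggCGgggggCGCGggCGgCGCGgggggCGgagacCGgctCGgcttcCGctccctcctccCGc
Wnt9b (mm9, chr11:103611136-103611285, minus strand, 18 CpG): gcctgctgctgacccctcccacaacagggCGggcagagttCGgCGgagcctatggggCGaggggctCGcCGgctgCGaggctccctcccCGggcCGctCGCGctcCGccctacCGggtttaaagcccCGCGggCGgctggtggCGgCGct
Wnt8b (mm9, chr19:44567812-44567961, plus strand, 4 CpG): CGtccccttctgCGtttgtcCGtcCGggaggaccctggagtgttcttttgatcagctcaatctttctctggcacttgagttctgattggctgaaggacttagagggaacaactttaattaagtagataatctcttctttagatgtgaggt

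In control αTN4 cells, promoters of most Frizzled receptors carried H3K4me3 and Pol2, and those of most ligands did not. A promoter was the 2 kb on each side of any protein-coding start of the gene. H3K4me3 together with Pol2 was found at 12 members, against 46.4% of all genes: 8 of 10 Frizzled genes, Lrp6, and 3 of 19 ligands (Wnt6, Wnt9a and Wnt10a). H3K4me3 without Pol2 was found at 4 ligands (Wnt4, Wnt7a, Wnt7b and Wnt16; 2.73% of all genes), and H3K4me2 with neither at 9 ligands (Wnt1, Wnt2, Wnt2b, Wnt3, Wnt3a, Wnt5a, Wnt5b, Wnt10b and Wnt11; 7.76%). Pol2 in all lay at 12 members (48.1% of all genes), the same 12. No αTN4 control list marked the promoters of Wnt8a, Wnt8b, Wnt9b, Fzd9, Fzd10 and Lrp5 (38.9% of all genes). No member had Pol2 without H3K4me3 (1.63%) or H3K4me1 as its sole mark (2.59%).

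**Figure D1:**
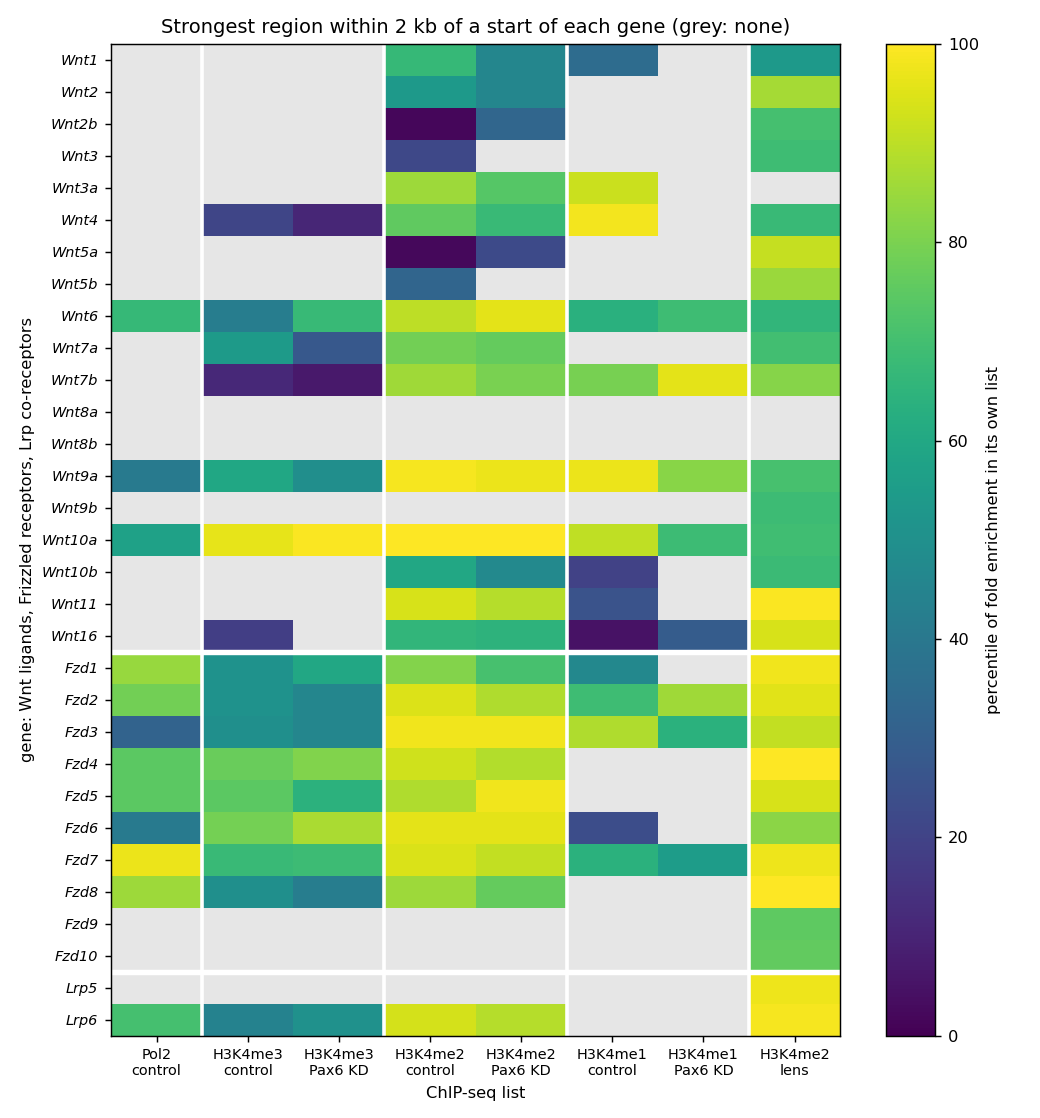
Strongest region within 2 kb of a start for each of the 31 genes (rows) in 8 ChIP-seq lists (columns), coloured by the percentile of its fold enrichment in its own list; grey means no region. Pax6 peaks are not drawn because no gene had one. Fzd1 to Fzd8 and Lrp6 are filled in the Pol2, H3K4me3, H3K4me2 and lens columns, and 9 Wnt rows have control H3K4me2 without H3K4me3 or Pol2.

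Fzd7, a receptor of both Wnt branches, had the strongest Pol2 peak of the members, with a fold enrichment of 32.3 (percentile 97.0). Its H3K4me3 fold was 23.8 (percentile 67.7) in control and 17.2 (percentile 68.4) in KD cells, and its H3K4me2 peak spanned 5998 bp in control, 5969 bp in KD cells and 6147 bp in lens. Fzd1 and Fzd8 followed for Pol2, at 20.1 (percentile 84.5) and 20.5 (percentile 85.5), with H3K4me3 near the middle of its list at 17.7 (percentile 50.9) and 17.4 (percentile 49.8). All 3 genes thus combined Pol2 in the upper part of its list with H3K4me3 nearer the middle.

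Fzd2, Fzd4 and Fzd5 had Pol2 folds of 17.6 (percentile 78.9), 16.1 (percentile 74.6) and 16.3 (percentile 75). Fzd4 is the receptor for Norrin as well as for Wnts, and Fzd5 is known for its part in eye development. Their H3K4me3 folds were 17.7 (percentile 50.9), 27.5 (percentile 77.2) and 26.4 (percentile 74.7). Fzd6 and Fzd3, which act in planar cell polarity, had the weakest Pol2 of the marked receptors, 8.05 (percentile 41.4) and 6.36 (percentile 31.8), although their H3K4me2 stood at 22.4 (percentile 96.0) and 23.9 (percentile 97.7). The co-receptor Lrp6 had Pol2 at 14.9 (percentile 70.6), H3K4me3 at 15.5 (percentile 44.2) and H3K4me2 at 20.7 (percentile 93.4).

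Among the ligands Wnt10a, a canonical ligand known for its part in tooth and hair formation, stood highest for both H3K4me3 and H3K4me2. Its H3K4me3 fold was 41.5 (percentile 96.4) and its H3K4me2 fold 28.3 (percentile 99.7), in a peak of 6018 bp, with Pol2 at 11.3 (percentile 57.1). Wnt10a lies next to Wnt6, which carried Pol2 at 13.9 (percentile 67.2), H3K4me3 at 14.7 (percentile 42.4) and H3K4me2 at 18.9 (percentile 90.0). Wnt9a had Pol2 at 7.86 (percentile 41.1), H3K4me3 at 20.8 (percentile 59.6) and H3K4me2 at 25.3 (percentile 98.7). These are the sole ligands with a Pol2 peak at the promoter. Their strongest Pol2 summits lay downstream of the start, by 1928 bp at Wnt10a, 1209 bp at Wnt6 and 1540 bp at Wnt9a. At the marked Frizzled genes these summits lay between -681 bp (Fzd8) and 137 bp (Fzd4) from the start.

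Of the 4 ligands with H3K4me3 and no Pol2 peak, 3 had H3K4me3 in the lower part of its list, and Wnt7a, known for limb patterning, stood near its middle. Wnt7a reached 18.9 (percentile 54.3), Wnt4 8.3 (percentile 20.8), Wnt16 7.91 (percentile 18.6) and Wnt7b 6.42 (percentile 11.5). Their H3K4me2 was stronger within its list, from 10.3 (percentile 65.8) at Wnt16 to 17.1 (percentile 85.9) at Wnt7b. Of the 9 ligands with H3K4me2 and neither H3K4me3 nor Pol2, Wnt1, Wnt3a, Wnt10b and Wnt11 also had an H3K4me1 island at the promoter. By H3K4me2 fold, Wnt11, which acts in kidney branching, had 20.9 (percentile 93.8) and Wnt3a, a canonical ligand of axis formation, 16.9 (percentile 85.2), whereas Wnt5a and Wnt2b, at 2.97 (percentile 2.0) and 2.91 (percentile 1.67), were among the weakest peaks of the list. Wnt1, Wnt10b, Wnt2, Wnt5b and Wnt3 lay between, at percentiles 66.9, 59.9, 53.7, 32.6 and 21.6.

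Most of the members had CpG-rich starts, and the ligands without H3K4me3 had a lower median CpG content than those with it. CpG content was measured 500 bp on each side of the outermost start as the ratio of observed to expected CpG, and promoters with a ratio of at least 0.6 were called CpG-rich. Of the members 26 were CpG-rich, against 46.1% of all genes. H3K4me3 in control cells lay at 14 of these 26, against 83.5% of all CpG-rich promoters: at 8 of 10 Frizzled promoters and at 5 of 14 CpG-rich ligand promoters. Pol2 lay at 2 of the 14 CpG-rich ligand promoters, against 80.3% of all CpG-rich promoters, and lens H3K4me2 at 13 of 14 (99%). Of the 12 ligands without H3K4me3, 9 were CpG-rich, and of the 7 with it, 5. The median ratio was 0.641 for the 12 ligands without H3K4me3 and 0.789 for the 7 with it, and the 2 groups overlapped, from 0.254 to 0.997 and from 0.349 to 0.997. Over all 31 members it was 0.798 with H3K4me3 and 0.748 without. Over all genes it was 0.749 with H3K4me3 and 0.245 without.

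The printed sequences include CpG-rich starts without an αTN4 mark, and the CpG-poor start of Wnt10a, which had marks within 2 kb. Fzd9, Fzd10 and Lrp5 had ratios of 0.924, 0.813 and 0.885 and no αTN4 mark, and Wnt5b had 0.997 with an H3K4me2 peak at percentile 32.6 as its sole mark. Wnt10a, with the strongest H3K4me3 of the ligands, had a ratio of 0.394 and Wnt16 0.349. The strongest control H3K4me3 peak of each began downstream of its start, with summits at 773 bp (Wnt10a) and 815 bp (Wnt16). Wnt8a and Wnt8b, which had no promoter mark in any list, had 0.254 and 0.326. Between 250 bases before and 50 after the start, the letters GGGCGG, counted on both strands, occurred at 21 members (44.1% of all promoters), CCAAT at 15 (37.9%), TATAAA at Wnt11 and Fzd1 (13.4%), and CTTTGAT, a match to the Tcf/Lef consensus, at Wnt8a and Wnt11 (3.44%).

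**Figure D2:**
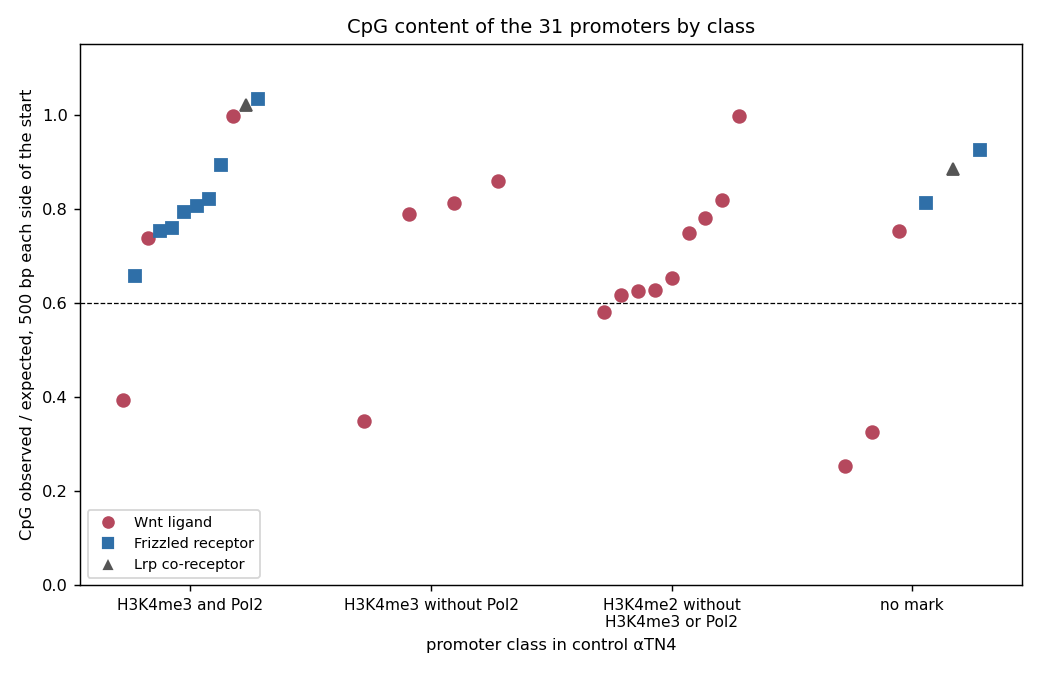
Ratio of observed to expected CpG, 500 bp each side of the start, for each of the 31 promoters (points, shaped by family) by promoter class in control αTN4 cells. The dashed line marks 0.6. 4 of the 6 promoters with no mark lie above it, and Wnt10a (0.394) and Wnt16 (0.349) lie below it in the H3K4me3 classes.

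In the newborn lens, H3K4me2 lay at the promoters of 28 members, against 66.9% of all genes, all except Wnt3a, Wnt8a and Wnt8b. Control αTN4 cells carried it at 25 (58.3%). Both had it at 24 (55.2%). It was in the lens only at Wnt9b, Fzd9, Fzd10 and Lrp5 (11.7%) and in the cell line only at Wnt3a (3.12%).

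The co-receptor Lrp5, which is needed for bone mass and retinal vessels, and Lrp6 had similar lens peaks and unlike marks in the cell line. The Lrp5 lens peak of 3145 bp had a fold of 30.3 (percentile 97.5), beside 31.6 (percentile 98.5) for Lrp6, and no αTN4 list held a region at its promoter in either condition. Fzd10 had a lens fold of 18.2 (percentile 76.0) in a peak of 3921 bp, Fzd9 17.9 (percentile 75.4) and Wnt9b 13.7 (percentile 68.5). At Wnt3a the αTN4 peak had a fold of 16.9 (percentile 85.2) with its summit at -1830 bp from the start.

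At the 24 promoters with a peak in both, several ligands took very different places in the 2 lists. The strongest peak was taken in each list separately. These peaks did not overlap between cells and lens at Wnt1, Wnt2b, Wnt9a, Wnt10b, Fzd3 and Fzd5, where different peaks are compared. Wnt5a, a non-canonical ligand, stood at 2.97 (percentile 2.0) in control cells and 25.9 (percentile 91.2) in lens, and its peak was 231 bp in the cells and 4003 bp in the lens. The related Wnt5b stood at percentile 32.6 in cells and 85.1 in lens. Wnt2b stood at 1.67 and 70.7, Wnt3 at 21.6 and 68.9, Wnt2 at 53.7 and 86.7, and Wnt16 at 65.8 and 93.8. The opposite order held for 7 ligands, the 3 with Pol2 among them. Wnt10a stood at 99.7 in cells and 69.4 in lens, Wnt9a at 98.7 and 71.1, and Wnt6 at 90.0 and 65.9. The other ligands in this order had no Pol2 peak at the promoter. They were Wnt1 at 66.9 and 53.6, Wnt7a at 78.7 and 69.8, Wnt4 at 75.7 and 67.7, and Wnt7b at 85.9 and 81.9.

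Places moved up by at least 10 percentile points from cells to lens at 8 of the 24 members (20.1% of all genes with both) and down at 5 (19.2%). Of these 13, 10 were ligands, as were 15 of the 24. Fzd1 (81.6 and 97.9) and Fzd8 (85.5 and 99.7) stood higher in lens, Fzd6 (96.0 and 82.5) lower, and the other Frizzled genes with both moved less than 10 points. Fzd4 and Fzd8 had the strongest lens peaks of the members, 35.8 (percentile 99.8) and 35.0 (percentile 99.7), with Wnt11 next at 33.7 (percentile 99.4). The lens is a tissue and its list also marked retinal and endothelial genes, as given above; their part in these differences was not tested, and tissue, age and transformation cannot be told apart.

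**Figure D3:**
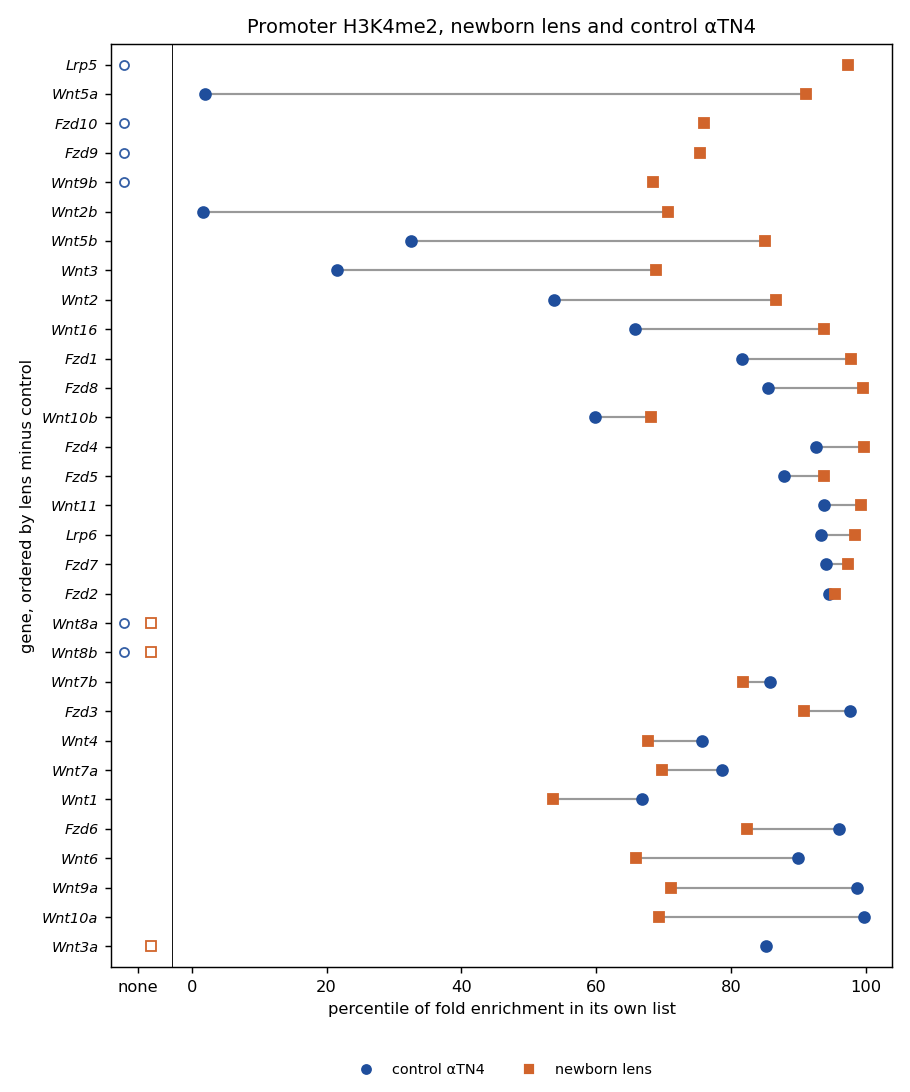
Percentile of the strongest promoter H3K4me2 peak of each member in control αTN4 cells (circles) and newborn lens (squares), ordered by lens minus control; open symbols in the left strip mean no peak. Wnt5a joins 2.0 and 91.2, Lrp5 has a lens peak alone, and Wnt10a and Wnt9a lie to the right in the cells. At some genes, Wnt9a among them, the peaks joined do not overlap.

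Around the genes, from 20 kb before to 20 kb after the gene body, the newborn lens list held 141 H3K4me2 peaks and the control list 136. A lens peak lay in the window of 31 of 31 members (79.4% of all genes) and a control peak in 28 (78%). The windows of Fzd9, Fzd10 and Wnt8b held 4, 3 and 2 lens peaks and none of αTN4 H3K4me1, H3K4me2 or H3K4me3. At Wnt8b, with no promoter mark, the stronger lens peak had a fold of 21.3 (percentile 81.9) and lay in the gene body.

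Peaks more than 2 kb from every protein-coding start were called distal. Of 51 control peaks nearer to a start, 47 overlapped a lens peak (92.2%, 95% Wilson interval 81.5 to 96.9; 88.8% in the windows of all genes). Of 85 distal control peaks in the windows, 25 overlapped a lens peak (29.4%, 20.8 to 39.8; 21.1%). Of 83 distal lens peaks, 33 overlapped a control peak (39.8%, 29.9 to 50.5; 28.5%). The overlap was 22 of 61 control peaks at ligands and 3 of 24 at receptors and co-receptors. Of distal lens peaks it was 27 of 52 and 6 of 31.

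Lrp5 held 15 lens peaks over 12329 bp, of which 12 overlapped no control peak, and its 2 shared peaks of highest fold lay within 2 kb of the start of the neighbour Ppp6r3. Wnt5b held the most lens peaks, 18 over 21717 bp, with 11 control peaks over 10532 bp, in a window with starts of Adipor2 and Fbxl14. Wnt7b, which acts in lung and in vessel regression of the eye, held the greatest length of control H3K4me2, 26160 bp beside 14272 bp in lens, followed by Wnt10a with 20595 and 11033 bp and Wnt6 with 15054 and 7736 bp. The windows of Wnt6 and Wnt10a overlap, as do those of Wnt1 and Wnt10b and of Wnt3a and Wnt9a, so these pairs share peaks. Windows of Wnt3 and Wnt9b overlap as well, outside both gene bodies. In all, 9 members had the start of another protein-coding gene in the window, 6 of them that of another member.

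**Figure D4:**
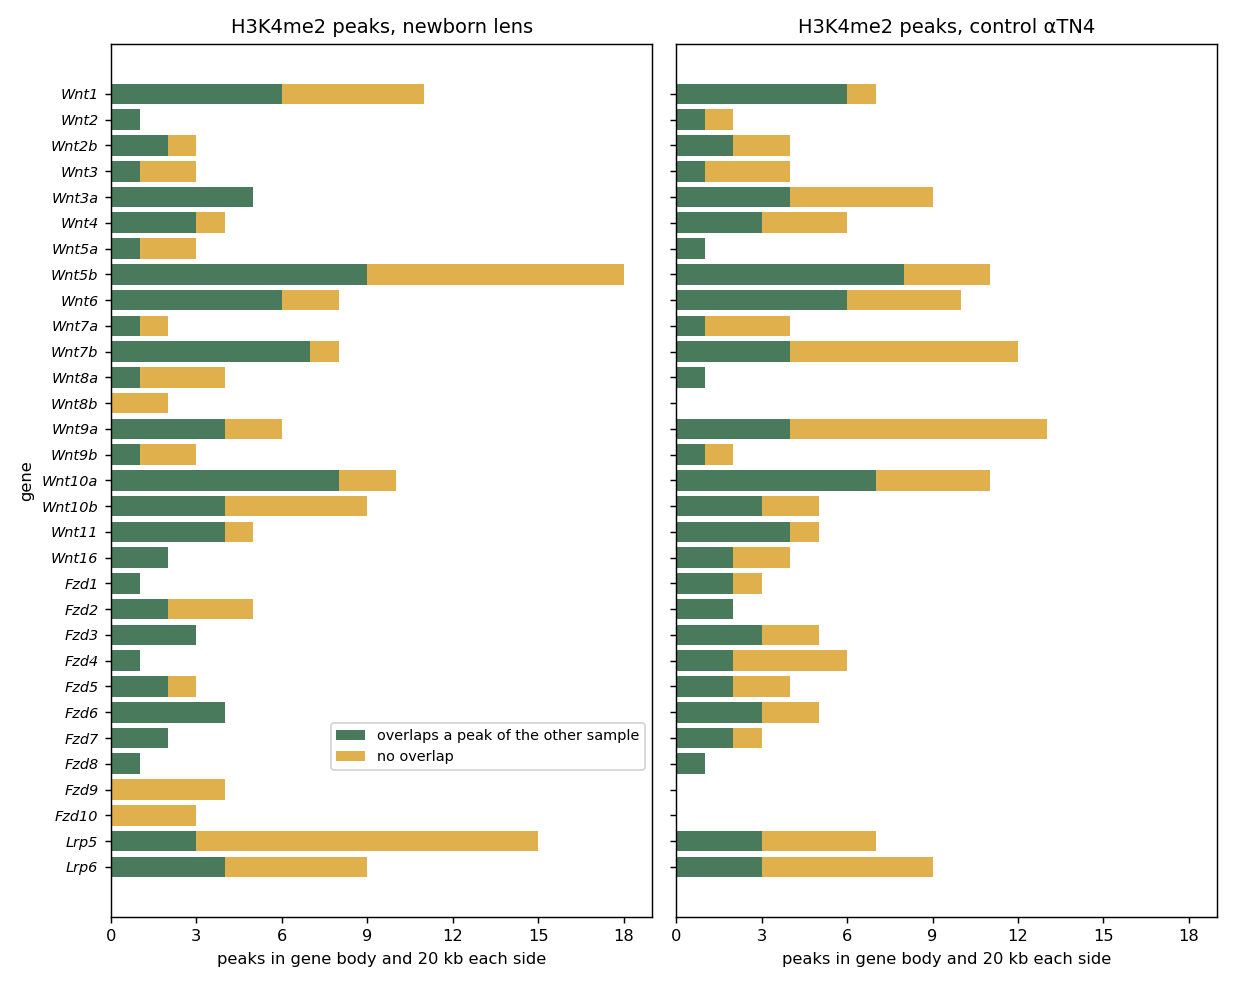
Number of H3K4me2 peaks in the gene body and 20 kb each side of every member, in newborn lens (left) and control αTN4 cells (right), split by overlap with a peak of the other sample. Lrp5 has 12 lens peaks without overlap, and Fzd9, Fzd10 and Wnt8b have no bar on the right.

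Most H3K4me3 and H3K4me2 calls at the members' promoters were made in both control and Pax6 KD cells. H3K4me3 was called at 16 promoters in control (49.2% of all genes) and at 15 in KD cells (47.8%), the same ones except Wnt16, which was lost (1.55% of all genes were called in control only). The Wnt16 peaks were weak, with a best fold of 7.91 (percentile 18.6), and its H3K4me2 was found in both, at 10.3 (percentile 65.8) and 10.5 (percentile 64.8). H3K4me2 was lost at Wnt3 and Wnt5b (1.54%), where the control peaks stood at 4.35 (percentile 21.6) and 5.07 (percentile 32.6), and kept at the other 23 (57.2% of all genes had it in KD). No member had H3K4me3 or H3K4me2 at its promoter in KD cells alone (0.234% and 0.45%).

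Within the lists, Wnt7a moved down for H3K4me3, from 18.9 (percentile 54.3) to 8.37 (percentile 27.6), while Wnt6 moved up from 14.7 (percentile 42.4) to 17.0 (percentile 67.4). Wnt10a stood at the top in both, 41.5 (percentile 96.4) and 34.7 (percentile 99.5), with a peak of 1694 bp in control and 3374 bp in KD. Over its whole window H3K4me3 covered similar lengths, 5065 bp in 5 control peaks and 5183 bp in 3 KD peaks. Over Fzd1 to Fzd8 the change lay between -10.5 points at Fzd5 and 9.04 at Fzd1. Of the 15 members with both, 4 moved down by at least 10 points (21.4% of all genes) and 1 up (12.4%), and the median change was -3.74 points, beside -1.68 over all genes.

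For H3K4me2, 4 of 23 members moved down by at least 10 points (11.3% of all genes): Wnt1 (66.9 to 45.8), Wnt10b (59.9 to 46.9), Wnt3a (85.2 to 73.6) and Fzd1 (81.6 to 70.8). At Fzd1 the strongest control and KD peaks were different ones that did not overlap. Its promoter held 2 peaks in each list, of 2388 bp together in control and 2428 bp in KD. The strongest peaks of the 2 lists also did not overlap at Fzd5, Fzd6 and Wnt7b. Wnt2b (1.67 to 33.0) and Wnt5a (2.0 to 22.6) moved up (8.29%), from the weakest peaks of the control list. The control peak of Wnt2b reached into the promoter by its edge alone, with its summit at -2036 bp. The median change was -3.96 points in the members and -0.994 over all genes, and 18 of 23 members moved down by any amount (57.8% of all genes).

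**Figure D5:**
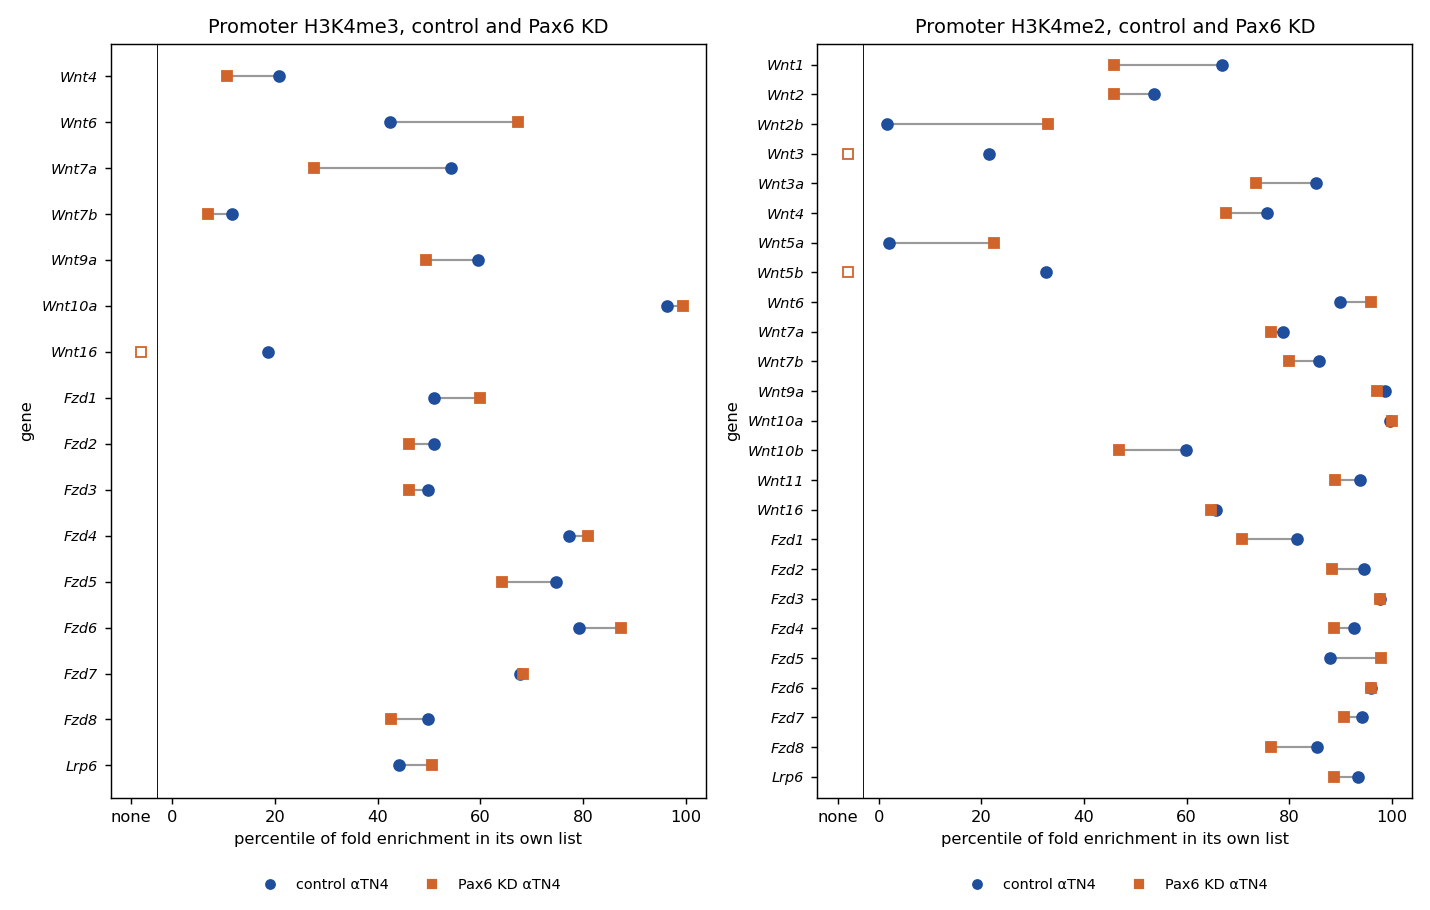
Percentile of the strongest promoter H3K4me3 peak (left) and H3K4me2 peak (right) of each member with one, in control (circles) and Pax6 KD (squares) αTN4 cells; open symbols in the strip mean no peak. Wnt16 is lost on the left and Wnt3 and Wnt5b on the right, all from low percentiles. Among the Frizzled pairs Fzd5 moved by -10.5 points on the left and Fzd1 by -10.8 on the right, where its control and KD peaks do not overlap.

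In the windows, 103 of 136 control H3K4me2 peaks were kept in KD (75.7%, Wilson interval 67.9 to 82.2; 84% in the windows of all genes) and 33 of 40 H3K4me3 peaks (82.5%, 68.1 to 91.3; 90.3%). The lost peaks were weak. Whether the control H3K4me2 list pools replicates is not known, and its part in these losses was not tested. The 33 lost H3K4me2 peaks had a median percentile of 20.5 and none was above 40.5, whereas the kept ones had a median of 65.9, and the 7 lost H3K4me3 peaks had a median of 8.34.

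H3K4me1 was called at 15 member promoters in control (36.1% of all genes) and 8 in KD cells (16.8%), and at none in KD alone (1.1%). The 7 lost were Wnt1, Wnt3a, Wnt4, Wnt10b, Wnt11, Fzd1 and Fzd6 (56.5% of all genes with it in control lost it). The 8 with an island in both were Wnt6, Wnt7b, Wnt9a, Wnt10a, Wnt16, Fzd2, Fzd3 and Fzd7. At Wnt7b the control island over the outermost start, of 61 ChIP reads, was lost, and the KD island lay near another start. Wnt9a lost 1 of its 2 promoter islands, of 71 ChIP reads. The KD list held 18417 islands and the control list 38007, so fewer islands were called in the KD list as a whole. Of the lost islands the strongest at a promoter was that of Wnt4, a ligand of kidney and female reproductive tract development, with 193 ChIP reads beside 52 control-library reads over 9600 bp, and both other islands of its window, of 42 and 32 ChIP reads, were lost as well. The lost promoter islands of highest fold at Wnt3a, Wnt1, Fzd1 and Wnt10b had 103, 70, 43 and 37 ChIP reads. Those at Wnt11 and Fzd6 had 54 each. Wnt1 and Wnt10b each lost a further promoter island, of 42 and 54 ChIP reads. Among the promoters that kept an island, Wnt9a had 196 ChIP reads over 6800 bp in control and 144 over 7800 bp in KD cells, and Fzd2 had 83 over 4800 bp and 94 over 6400 bp.

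Of 75 control H3K4me1 islands in the windows 39 were kept (52%, Wilson interval 40.9 to 62.9; 47% in the windows of all genes). With the list split in 3 by ChIP reads, 1 of 20 islands was kept in the part with the fewest reads, 9 of 20 in the middle part and 29 of 35 in the part with the most, where the windows of all genes had 16.7%, 38.0% and 84.1%. Both H3K4me1 islands of Lrp5 and both of Lrp6 were lost. The density of ChIP reads (per kb, log2 of KD over control, centred on all islands kept genome-wide) had a median of -0.04 across the 39 kept islands, with 22 islands lower and 17 higher. At Wnt7a, Wnt7b, Wnt9b, Fzd6 and Fzd7 more than 1 control island was paired with the same wider KD island. The 39 values are therefore not all separate. Before centring, the median over all kept islands was -0.31.

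No Pax6 peak lay in the window of any of the 31 members (2.09% of all genes had one) or at a promoter (0.252%). The nearest lay 67.3 kb from Fzd2, with a fold of 7.04, 140.6 kb from Fzd7, with a fold of 11.9, and 191.3 kb from Fzd9, with a fold of 4.55. Within 100 kb of the gene body 1 member had a peak (5.92% of all genes) and within 200 kb 3 (10.5%). The median distance was 1706 kb for the members and 1826 kb for all genes. The list of 504 peaks is short, and a Pax6 site below its threshold was not detectable.

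Of the other genes of the pathway, 47 chosen by role, H3K4me3 with Pol2 lay at the promoters of 19 (46.4% of all genes), most of them inside the cell. These were 9 of 12 cytoplasmic components (Dvl1, Apc and Ctnnb1 among them), 5 of 7 nuclear ones, both secretion genes (Porcn and Wls), 2 of 9 agonists and their receptors (Lgr4 and Znrf3), 1 of 6 other co-receptors (Kremen1) and 0 of 11 secreted inhibitors. Of the inhibitors, most of which bind Wnts or Lrp5 and Lrp6 outside the cell, Wif1 alone had H3K4me3, at 10.1 (percentile 27.3). In the newborn lens 46 of 47 had promoter H3K4me2 (66.9% of all genes; all except Dkk4), including Sfrp1 at 30.5 (percentile 97.7) and Dkk1 at 17.9 (percentile 75.5), neither of which had any αTN4 mark. Axin2, a common target of the canonical branch, had H3K4me3 at 19.2 (percentile 55.3) and no Pol2 peak, and Lef1 had both, at 34.0 (percentile 89.2) and 17.9 (percentile 79.5).

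H3K4me3 was called in control alone at the agonist Rspo3 and at its receptor Lgr5, each with a best fold of 5.28 (percentile 5.09). Their H3K4me2 was kept, at percentiles 95.7 and 90.6 for Rspo3 and 91.1 and 90.1 for Lgr5. Pax6 peaks lay in the windows of 2 of the 47 genes (2.09% of all genes). One was in Lgr5 (chr10:115008424-115008604, mm9, fold 7.30), 16.3 kb from the start and overlapping a lens H3K4me2 peak. The other was in Wls (chr3:159514939-159515251, fold 9.13), 12.4 kb from the start and overlapping a control H3K4me1 island and a lens H3K4me2 peak. Neither overlapped a region of the KD lists, and the Lgr5 peak overlapped no control Pol2, H3K4me1, H3K4me2 or H3K4me3 region either.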

How the data were processed

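The members, the pathway list and the tests were chosen with earlier results of these data known. Per the paper's methods, the authors aligned ChIP-seq reads to mm9 with Bowtie, called Pax6, Pol2, H3K4me2 and H3K4me3 peaks with MACS2 and H3K4me1 islands with SICER, and removed blacklisted regions; versions of these tools are not given in the sources used here. For each MACS2 peak the authors deposited the fold enrichment (a ratio over background) and −log10 of the p-value and q-value, without read counts. For each SICER island (window 200 bp, gap 600 bp, FDR 0.001) they deposited counts of reads for ChIP and control libraries, a p-value, a fold and an FDR; the control library is not named. Names of the control H3K4me2 peaks hold "bothreps", so that list may pool replicates, which is not stated elsewhere. The RNA-seq and input libraries were not analysed here. The labels do not name the shRNA of the KD ChIP; the paper's methods give 1 construct.

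Regions were used as deposited, all within the mm9 chromosome lengths, and related to GENCODE vM1 genes (45812 protein-coding starts). Overlap was at least 1 bp. A promoter reached 2 kb from any start of the gene, a window 20 kb beyond the gene body, and the percentile is the rank by fold in one list. Values were given for members with promoter H3K4me3, with a promoter mark in 1 of the 2 samples compared, or with the largest covered lengths, and of the pathway genes for those with a Pax6 peak or with H3K4me3 in control or KD alone; Sfrp1, Dkk1, Wif1, Axin2 and Lef1 were added after their values were seen. The scripts (Python 3.11.15, pandas 2.3.3, NumPy 2.4.6) were tested on simulated regions. Wilson intervals (95%) cover counting error only. Another promoter distance, start, overlap, threshold, window and CpG span were tried, and equal list sizes and another CpG limit were added after seeing the data. Some marker genes of the retinal list are not reported here.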

Additional observations from a re-analysis of the deposited data

How the results depend on the processing

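No paired analysis was possible because each ChIP condition has 1 library and no result comes from a test between replicates. Main results were recomputed with promoters of 1 kb, the outermost start alone, overlaps of 200 bp, stricter regions (−log10 q of at least 5 or FDR of at most 1e-06), windows of 10 and 50 kb, regions nearest to a member's start, sharing of 50% of the shorter region, and 250 bp for CpG. Counts stayed within 1.5 times, shares within their intervals and medians within 1 SD in all 108 of these values. Equal numbers of regions per mark and a CpG limit of 0.75, both chosen after seeing the data, gave 24 more, of which 22 stayed so. The exceptions came with equal numbers of regions, where control H3K4me1 lay at 9 member promoters and 64.9% of its islands in the windows were kept; fewer control islands enter by construction. The number of lists marking a promoter changed in 16 of 155 values for single members, all these settings together. Promoter H3K4me2 in lens and not in control lay at 4 members as reported and at 5 with promoters of 1 kb. With stricter regions it lay at 6, exactly on the limit of 1.5 times. Wnt2b was the gene added with promoters of 1 kb, and Wnt2b and Wnt5a those added with stricter regions. Their control peaks had −log10 q of 3.65 and 2.53, so their control H3K4me2 and its changes depend on the threshold. Depth is unknown for MACS2 peaks, so a missing peak is not an absent mark.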
